A study of Mus musculus with 8 samples.

Results

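The Dectin-2 lectin cluster is a row of neighbouring genes for C-type lectin receptors of myeloid cells, and FcRγ, Syk and Card9 carry the signal of its activating members. The 10 genes described here were chosen by name: the lectins Clec4d, Clec4n, Clec4e, Clec4a1, Clec4a2, Clec4a3 and Clec4b1, and the signalling genes Fcer1g, Syk and Card9. They stand among 18217 genes with a named probe on the array. A probe named for the gene was found for 9 of the 10 (none for Card9), and 7 passed the filter on dim probes and were tested. Clec4e and Clec4a1 did not pass it, so the tested genes are not all of the cluster. The study itself picked out Clec4d and Clec4n on these same arrays, so their direction here is a description and not independent evidence.

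Kidney RNA of 8 mice aged 8 weeks was read on 1-colour Agilent arrays, 4 from NEKO mice and 4 from littermate controls, with 2 females and 2 males in each group. NEKO mice (Keap1-/-::Nrf2Flox/Flox::K5-Cre) lack Keap1, the protein that holds the stress-response factor Nrf2 in check, and lose Nrf2 where the K5 promoter drives Cre, in squamous epithelium such as skin and oesophagus, so that they survive. All controls were Keap1 heterozygotes, Keap1+/-::Nrf2Flox/Flox, 3 with K5-Cre and 1 without it, and every mouse of both groups carried the floxed Nrf2 alleles on a mixed 129Sv/J and C57BL/6J background. Values are log2 of the background-corrected signal minus the 75th percentile of the same array, so that 0 is the level of a fairly bright probe. They compare the same probe between mice and not one gene with another.

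C-type lectin receptors on macrophages, dendritic cells and neutrophils bind sugars and glycolipids of fungi and mycobacteria, and some also sense dying cells. Dectin-2, Mincle and their relatives have short tails and signal through the paired adaptor FcRγ, whose phosphorylated motif recruits the kinase Syk, after which Card9 with Bcl10 and Malt1 switches on NF-κB. DCIR is the inhibitory relative in the same cluster, with a motif in its own tail that recruits phosphatases. In the kidney these genes are known mainly from resident macrophages and infiltrating myeloid cells. The paper also found Clec4d and Clec4n higher in collecting duct cells isolated from NEKO kidneys than in those from controls. Both were raised in its mice that lost Keap1 in renal tubules from the embryonic stage, and not from the adult stage.

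Promoters of the lectins are shown because neighbours in the cluster behaved differently. The sequences run from 250 bases before to 50 bases after the start in RefSeq (GRCm38.p6), 5′ to 3′ on the strand of the gene. Capitals mark GAGGAAG, a form of the binding site of PU.1, the myeloid ETS factor. The search covered both strands.
Clec4d, chr6:123261857-123262156, plus strand: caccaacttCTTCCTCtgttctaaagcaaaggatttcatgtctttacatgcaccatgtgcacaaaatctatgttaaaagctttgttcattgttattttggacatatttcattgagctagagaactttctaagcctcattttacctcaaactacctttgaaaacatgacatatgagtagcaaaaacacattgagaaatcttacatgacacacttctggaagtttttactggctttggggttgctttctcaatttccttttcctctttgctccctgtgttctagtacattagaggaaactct
Clec4e, chr6:123289822-123290121, minus strand: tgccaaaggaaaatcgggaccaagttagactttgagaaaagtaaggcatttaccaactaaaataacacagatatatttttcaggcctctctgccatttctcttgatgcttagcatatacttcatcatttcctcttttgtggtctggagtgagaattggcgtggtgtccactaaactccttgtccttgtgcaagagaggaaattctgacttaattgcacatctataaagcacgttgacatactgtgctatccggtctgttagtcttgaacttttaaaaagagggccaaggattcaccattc
Clec4a2, chr6:123122440-123122739, plus strand: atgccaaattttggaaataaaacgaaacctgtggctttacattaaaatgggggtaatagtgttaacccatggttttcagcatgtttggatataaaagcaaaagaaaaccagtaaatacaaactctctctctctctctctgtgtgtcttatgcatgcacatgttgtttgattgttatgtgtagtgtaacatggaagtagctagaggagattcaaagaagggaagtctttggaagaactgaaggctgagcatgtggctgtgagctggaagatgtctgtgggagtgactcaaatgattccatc
The Clec4d promoter held 1 match to GAGGAAG, on the minus strand 241 bases before the start, and those of Clec4e and Clec4a2 held none. Among the others, Clec4a1 also held 1 match, 188 bases before its start. GAGGAAG lies in 13.6% of 32851 RefSeq promoters of this length. The core of the antioxidant response element, TGACNNNGC, through which Nrf2 acts on its targets, was found in none of the members' promoter windows and lies in 12.4% of all promoters. Clec4n had no entry. These are letter matches in a short window. Beyond it, the paper reports several places around Clec4d and Clec4n that Nrf2 binds in chromatin immunoprecipitation, tested in bone marrow-derived macrophages. It proposes both genes as direct targets of Nrf2.

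Clec4d and Clec4n were higher in all 4 NEKO mice than in any control, Clec4e was seen above background in the male NEKO mice alone, and the other lectins, Fcer1g and Syk overlapped between the groups. Clec4d encodes MCL (Dectin-3), a receptor for mycobacterial glycolipid that also carries Mincle to the cell surface. Its log2 signal was -6.55 and -6.67 in the female controls and -6.48 and -6.16 in the male controls. NEKO females read -4.81 and -3.99, and NEKO males -1.62 and -0.95. No control array read the probe well above background, and all 4 NEKO arrays did, with the males the brightest. Because the controls gave no measured level, the NEKO signal was set against the dimmest detected probe of each control array. It stood 6.02-fold above that level over all mice, 2.24-fold in females and 16.2-fold in males. These folds depend on the background correction and on that choice of probe, so they are not strict lower bounds. The group means were -6.47 ± 0.22 and -2.84 ± 1.85 (SD, n = 4), a difference of 3.62 log2 units counted from background (SE 0.58, limma adjusted p = 0.064). The probe passed the filter on dim probes only through the 4 NEKO arrays, so a difference was all but fixed by its being tested, and its p is given as a description.

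Clec4n encodes Dectin-2 itself, the receptor for fungal mannans. It was well above background on all 8 arrays. Controls read -4.15 and -4.02 in females and -4.45 and -4.30 in males. NEKO females read -2.65 and -2.10, and NEKO males -1.06 and -0.09. Every NEKO value lay above every control value, and both NEKO males lay above both NEKO females. The means were -4.23 ± 0.19 and -1.48 ± 1.13 (SD, n = 4), a difference of 2.75 (SE 0.45, 95% interval 1.68 to 3.82, limma adjusted p = 0.065). On a linear scale that is 6.73-fold, with an interval of 3.21 to 14.1.

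Neither gene passed an adjusted p of 0.05. Among the 19593 genes and unnamed transcripts tested, 0.225% passed in either direction, and Clec4n stood 22nd from the largest difference upward and 146th by p. Every NEKO array lay above every control array for 2 of the 7 tested members and for 3.88% of everything tested, and nothing is read from that count, since both genes were picked on these arrays. Among the 7 tested members, 0 passed the adjusted limma test and 3 had an unadjusted p under 0.05 (Clec4d, Clec4n and Clec4b1), against 18% of all tested. From this count, too, nothing is read. Clec4d and Clec4n were picked on these arrays, and Clec4d was tested only through its NEKO arrays. With the normexp background correction in place of the scanner's, the difference was 1.44 for Clec4d and 1.83 for Clec4n. A model with a separate effect in each sex, averaged over both, gave adjusted p = 0.0064 for Clec4n in limma. No other setting with adjustment passed: leaving out 1 mouse gave limma adjusted p from 0.0801 to 0.187. The unpaired comparison with unequal variances gave adjusted p = 0.370.

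**Figure D1:**
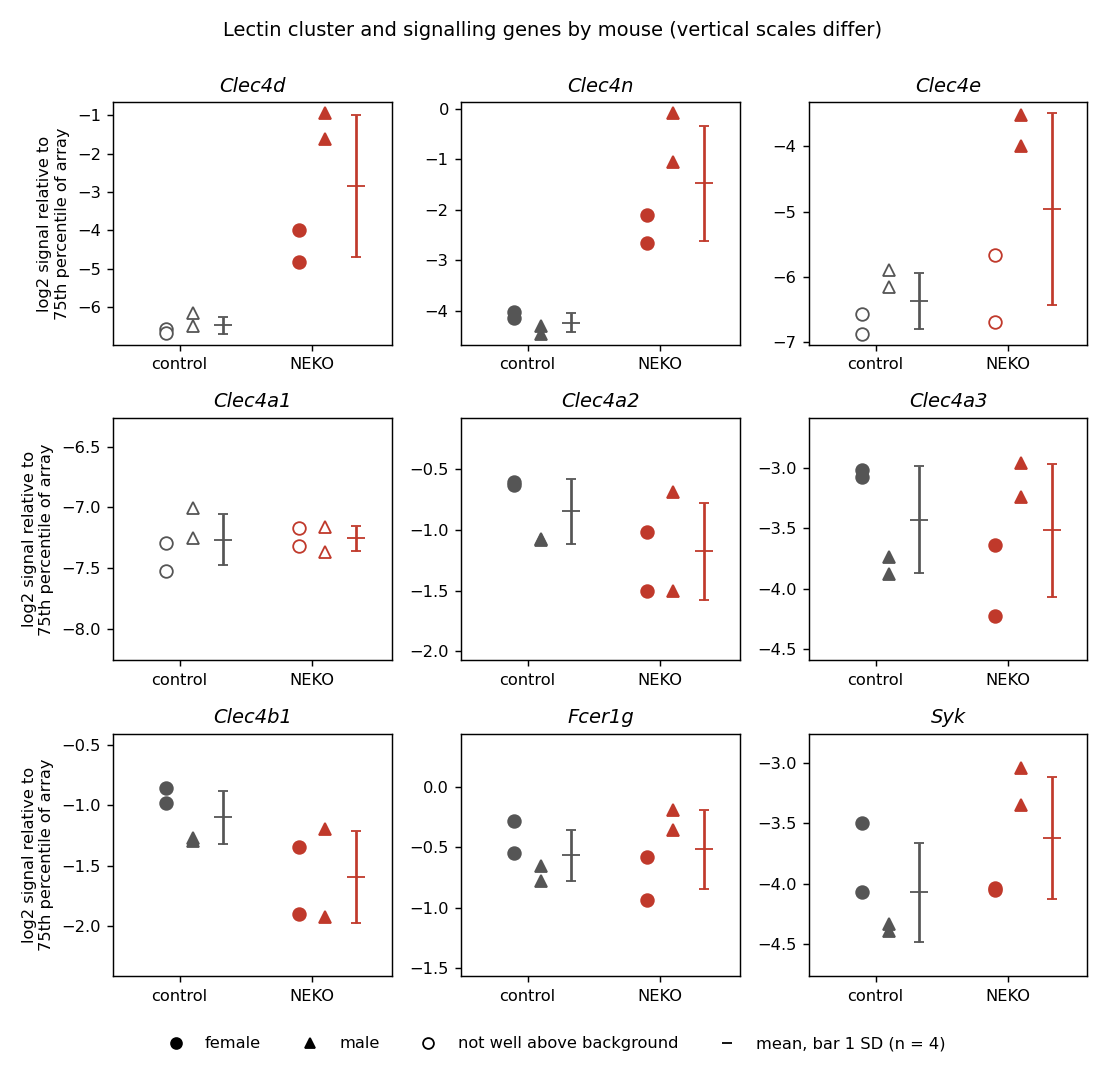
Log2 signal less its array's 75th percentile (vertical axes, scaled separately per gene) for the 9 genes with a named probe, in 4 control and 4 NEKO kidneys, circles for females and triangles for males, open where the probe was not well above background, with the mean and 1 SD beside each group. The control points of Clec4d are all open and lie between -6.67 and -6.16, while those of its NEKO mice run from -4.81 to -0.95.

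Clec4e encodes Mincle, the receptor for mycobacterial cord factor and a close partner of MCL. Controls read -6.87 and -6.57 in females and -6.15 and -5.90 in males, none well above background. NEKO females read -6.69 and -5.66, also not well above background, and NEKO males -3.51 and -4.00, both well above it. The groups overlapped through 1 NEKO female that read below 3 of the controls. The difference of means was 1.41, with exact permutation p = 0.143. In the males alone the signal stood 2.93-fold above the dimmest detected probe of the male control arrays, which is not a strict lower bound. The females gave no such value. The gene did not pass the filter on dim probes, so it has no adjusted p, and under normexp correction the difference was 0.49.

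The remaining lectins of the cluster did not share this. Clec4a2 encodes DCIR, the inhibitory receptor. Its controls read -0.63, -0.60, -1.08 and -1.08 and its NEKO mice -1.50, -1.01, -1.50 and -0.69, in the order of females and then males. The groups overlapped, with a difference of -0.33 (SE 0.22, 95% interval -0.85 to 0.20, limma adjusted p = 0.46). A further Clec4a2 probe, also well above background on all arrays, differed by -0.11, and the last of its 3 probes was not above background on any array.

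Clec4b1 encodes DCAR, an activating relative that pairs with FcRγ. Controls read -0.86, -0.98, -1.27 and -1.30 and NEKO mice -1.90, -1.35, -1.93 and -1.20. In NEKO mice 3 of the 4 values lay below every control, with a difference of -0.49 (SE 0.20, 95% interval -0.97 to -0.02, limma adjusted p = 0.268) and exact permutation p = 0.114. Clec4a3, a DCIR relative, read -3.08, -3.02, -3.88 and -3.74 in controls and -4.22, -3.64, -3.24 and -2.96 in NEKO mice. Its female NEKO values lay below both female controls and its male NEKO values above both male controls, so that the difference over all mice was -0.09 (SE 0.33, 95% interval -0.87 to 0.69, limma adjusted p = 0.905). For Clec4a1 no array of the 8 gave a signal well above background.

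Fcer1g encodes FcRγ, the adaptor that the activating lectins share with Fc receptors. Controls read -0.55, -0.28, -0.65 and -0.78 and NEKO mice -0.94, -0.58, -0.36 and -0.19, females first. The groups overlapped and the difference was 0.05 (SE 0.19, 95% interval -0.39 to 0.49, limma adjusted p = 0.905). In females both NEKO values lay below both controls, and in males both lay above. Syk, the kinase next in line, read -4.07, -3.49, -4.33 and -4.39 in controls and -4.05, -4.03, -3.35 and -3.05 in NEKO mice. Both male NEKO values exceeded all controls, whereas the female values lay between the 2 female controls. The difference was 0.45 (SE 0.30, 95% interval -0.26 to 1.16, limma adjusted p = 0.453).

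**Figure D2:**
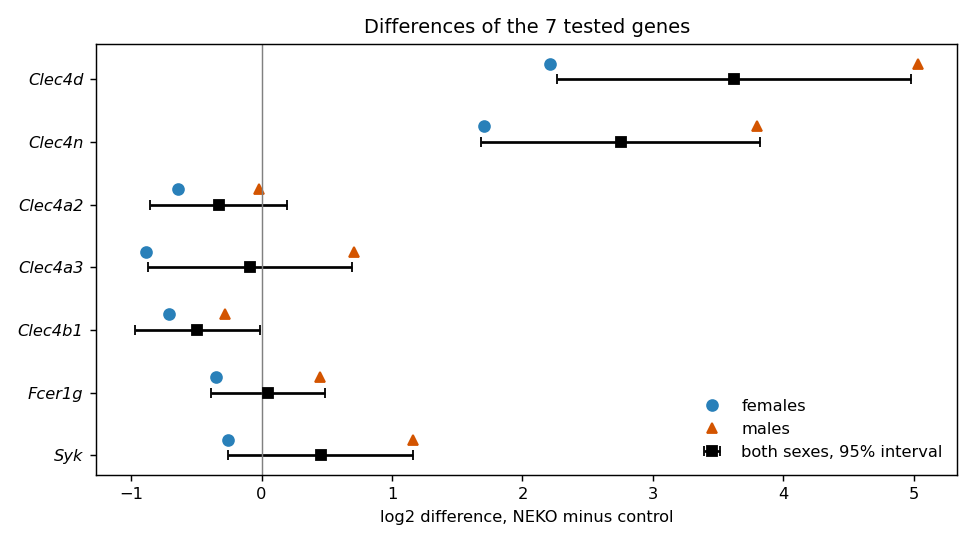
Log2 difference, NEKO minus control (horizontal axis), for the 7 tested genes: squares with 95% intervals for both sexes together (n = 4 per group), circles for females and triangles for males. The intervals of Clec4d, counted from controls at background, and Clec4n lie wholly above those of the other 5 genes, and in each gene the male point lies to the right of the female point.

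The signed difference, NEKO minus control, was more positive in males for each of the 7 tested members. Over all 19592 tested features, 50.3% had the more positive value in males. The medians of the immune cell marker lists described below were also more positive in males. In females and males they were -0.10 and 0.52 (macrophage), 0.02 and 0.80 (monocyte) and 0.41 and 1.96 (neutrophil). Dendritic cell markers had -0.36 and 0.18, and lymphocyte markers -0.46 and 0.79. The Card9 outputs (-0.46 and -0.71) and kidney tubule markers (-0.14 and -0.46) went the other way. In size, Clec4a2 and Clec4b1 changed less in males (-0.02 and -0.28) than in females (-0.64 and -0.71). Clec4d, counted from controls at background, differed by 2.21 in females and 5.03 in males, an excess in males of 2.82 (SE 0.46, limma adjusted p = 0.127). For Clec4n the values were 1.71 and 3.80, an excess of 2.09 (SE 0.47, limma adjusted p = 0.171). Syk went from -0.26 to 1.16 (limma adjusted p = 0.148), Clec4a3 from -0.88 to 0.71 (limma adjusted p = 0.132) and Fcer1g from -0.35 to 0.44 (limma adjusted p = 0.289). None of the 7 passed the adjusted limma test of this difference, and 0.0153% of all features tested passed it. An unadjusted limma p under 0.05 was found for 5 of the 7 and for 2062 of the 19592 features. Clec4d and Clec4n, picked on these arrays, are among the 5, so nothing is read from that count. Each slide carried a single sex, which leaves slide and sex inseparable. On both slides the controls lay at positions 1 and 2 and the NEKO samples at 3 and 4, so position and genotype cannot be told apart either.

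Set against its partners within each array, the change of Clec4n exceeded that of Fcer1g by 2.70 log2 units (2.05 in females, 3.35 in males), and that of Syk by 2.30. It exceeded those of the neighbouring lectins Clec4a2, Clec4a3 and Clec4b1 by 3.08, 2.84 and 3.24. For Clec4d the same excesses were 3.57 over Fcer1g, 3.17 over Syk and 3.95, 3.71 and 4.11 over the 3 lectins, counted from control values at background. In these 10 pairs every NEKO ratio lay above every control ratio, and leaving out any mouse kept the sign. The pairs share only the first genes Clec4d and Clec4n, so they are not separate results and nothing is read from their number. Clec4d against Clec4n differed by 0.87 and the groups overlapped. No p is given for these ratios, since the first gene of each was picked on these arrays, and Clec4d was tested only through its NEKO arrays.

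Order along the chromosome was taken from RefSeq. The cluster reads Clec4a1, Clec4a3, Clec4a4, Clec4b1, Clec4a2, Clec4b2, Clec4n, Clec4d and Clec4e, so the genes with the higher NEKO values are adjacent at one end. Clec4a4 and Clec4b2 had no named probe. Beyond that end the nearest tested gene, Cd163, was the 10th protein-coding gene after Clec4e, and those between were not tested. Cd163 encodes the haemoglobin scavenger receptor of macrophages (0.90, SE 0.42). After it came Pex5, the peroxisome import receptor (0.22), Clstn3 (0.38), C1rl (-0.08) and C1ra, a complement protease gene (0.03). On the opposite side Necap1, an endocytosis gene (-0.27, SE 0.08), lay next to the cluster. Further out, with untested genes between some of them, lay Foxj2 (0.20), Slc2a3, a glucose transporter (0.58), Apobec1, the mRNA-editing cytidine deaminase (0.22), and Mfap5, a microfibril protein gene (0.72). The 10 flanking genes had a median difference of 0.22, and 0 of them passed the adjusted limma test. Necap1 alone was separated between the groups, with every NEKO value below every control value, as were 5.39% of everything tested.

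Around the members, 68 further genes of the pathway were listed, of which 41 were tested. In limma 0 of these were called higher and 1 lower. An unadjusted p under 0.05 was found for 10 of the 41, and for 18% of everything tested. Their median difference was 0.02 against -0.03 over everything tested. The gene called lower was Fcgr4, an IgG receptor that also signals through FcRγ. Its controls ran from -2.04 to -1.53, with a median of -1.88, and its NEKO values from -3.24 to -2.90, with a median of -3.09. That was a fall of 2.37-fold (log2 difference -1.25, SE 0.12, limma adjusted p = 0.0149), where 0.128% of everything tested was called lower. The call was lost without control 4 or 7 or NEKO 5 or 6 (limma adjusted p from 0.0592 to 0.0735), and in those fits the difference ran from -1.29 to -1.27. The unpaired comparison with unequal variances also lost the call (adjusted p = 0.214). Under normexp correction the difference was -0.82 and the call remained (limma adjusted p = 0.0209).

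Other receptors coupled to FcRγ or to its relative DAP12 showed smaller differences. Of the 6 tested from a list of 10, Fcgr3 differed by 0.20, Fcgr1 by -0.37 and Tyrobp, the gene of DAP12, by 0.35, none passing. Fcer1a, Ms4a2 and Pira2 were not well above background in any mouse. Of the Dectin-1 cluster, the neighbouring lectin family on the same chromosome, 3 of 8 were tested and 0 called. Clec1a, a lectin of endothelium and myeloid cells, had every NEKO value below every control value (-3.79 to -3.32 against -3.26 to -2.98), with a difference of -0.52 (SE 0.10, limma adjusted p = 0.0915), or -0.22 under normexp. Clec7a, which encodes Dectin-1, had no named probe.

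Of 18 genes of the relay from Syk through Card9 to NF-κB, 16 were tested and 0 called, with differences from -0.34 to 0.41 and a median of 0.12. Bcl10 differed by 0.13 and Malt1 by -0.25. Traf6, the ubiquitin ligase downstream of them, was separated upward, from -1.67 to -1.45 in controls and from -1.43 to -1.23 in NEKO mice, a difference of 0.23 (SE 0.08, limma adjusted p = 0.218). For 13 Src-family kinases and brakes of the pathway, 12 were tested, 0 called and the median was -0.01.

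Among 17 cytokines and other outputs that Card9 signalling is known to induce, 4 were tested and 0 called, and 12 were not well above background in any mouse, among them Tnf, Il6, Il10, Cxcl2 and Ptgs2. Cxcl1, a neutrophil-attracting chemokine, was higher in every NEKO mouse (-4.71 to -3.45) than in any control (-5.86 to -4.83), a difference of 1.27 (SE 0.30, limma adjusted p = 0.125). It was well above background in 2 of the 4 controls, and under normexp the difference was 0.56. Il1b, the inflammasome cytokine, lay the other way, at -5.38 to -4.35 in NEKO mice and -4.15 to -3.73 in controls (-0.75, SE 0.24, limma adjusted p = 0.195, and -0.29 under normexp). Ccl4, a macrophage chemokine, differed by -0.77 (SE 0.15, limma adjusted p = 0.0936) with overlapping groups, and Nlrp3 by -0.47.

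**Figure D3:**
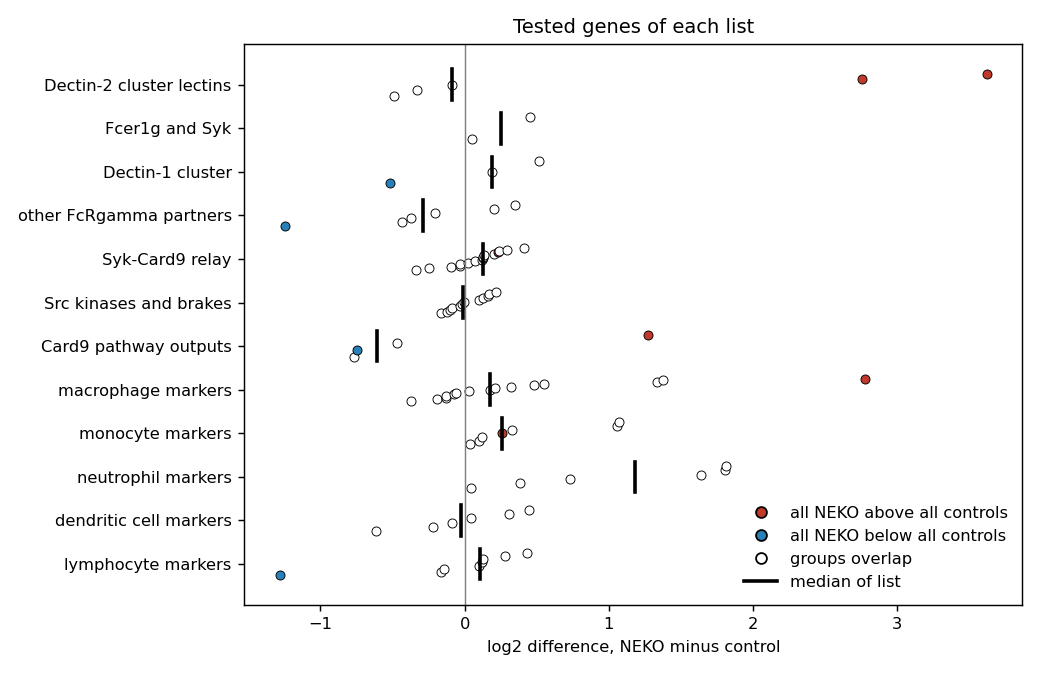
Log2 difference, NEKO minus control (horizontal axis), of every tested gene in each list, red where all 4 NEKO values lay above all 4 controls, blue where all lay below, white where the groups overlapped, with a black bar at the list median. Clec4d (3.62) and Clec4n (2.75) stand apart from the medians of the pathway lists, which run from -0.61 to 0.25.

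In whole kidney, more cells of a type and more RNA per cell cannot be told apart. Of 15 tested macrophage markers from a list of 16, 0 were called and 1, Trem2, was separated upward. The median difference was 0.17 (-0.10 in females, 0.52 in males), and the summed linear level ran from 10.2 to 13.1 in controls and from 10.1 to 18.6 in NEKO mice, the highest in male NEKO 6. Trem2, a lipid-sensing receptor of macrophages that signals through DAP12, ran from -4.39 to -3.17 in controls and from -2.48 to 0.63 in NEKO mice (2.77, SE 0.65, limma adjusted p = 0.125). The defining markers Adgre1 (0.21) and Csf1r (-0.19) overlapped between the groups, as did Lyz2 (1.38) and Ms4a7 (1.33), whose values in males were 2.67 and 2.55.

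Neutrophil markers read highest in the male NEKO kidneys. Of the 14 listed, 6 were tested, with 0 called, 0 separated and a median of 1.18 (0.41 in females, 1.96 in males), and Elane was not well above background in any mouse. Their summed linear level was 0.393 to 0.690 in controls, 0.545 and 0.747 in NEKO females and 6.97 and 2.09 in NEKO males 5 and 6. S100a9 alone made up 39.5% to 68.4% of that sum in controls and 50.4% to 86.2% in NEKO mice. Without S100a9 the sums were 0.198 to 0.255 in controls and 0.271 to 0.965 in NEKO mice, and did not overlap. S100a8 and S100a9, the calprotectin subunits, differed by 1.81 (SE 0.68) and 1.64 (SE 0.68), neither passing, and S100a8 was well above background in 1 of 4 controls and 3 of 4 NEKO mice. Mpo and Ltf, granule protein genes, differed by 0.05 and 0.39. Of 7 tested monocyte markers 0 were called, the median was 0.26 and the summed level was 53.7 to 64.2 in controls and 64.9 to 81.8 in NEKO mice. Ly6c2, the monocyte surface antigen, was the separated one (0.26, SE 0.11, limma adjusted p = 0.270) and made up 88.9% to 91.7% of every sum. Without it the sums overlapped, at 5.63 to 6.09 and 5.67 to 7.36. Such sums weigh probes by brightness, so the brightest marker sets them.

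The change of Clec4n exceeded the mean change of the macrophage, monocyte and neutrophil markers by 2.33, 2.33 and 1.68 log2 units, and in females alone by 1.83, 1.65 and 1.42. Single markers differed as much, with Trem2 at 2.77 against 2.75 for Clec4n. The part of myeloid cell number in the lectin values was not tested. Dendritic cell markers had a median of -0.02 (6 of 8 tested, summed level 2.09 to 2.91 in controls and 2.30 to 3.41 in NEKO mice, Siglech not above background on any array). Lymphocyte markers had a median of 0.11 (8 of 10 tested, 0.666 to 0.964 and 0.539 to 1.14, with Cd4 and Cd79a not above background on any array). In neither list was a gene called, and Cd8a, the cytotoxic T cell coreceptor, had every NEKO value below every control value (-1.28, SE 0.41, limma adjusted p = 0.194, and -0.78 under normexp).

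**Figure D4:**
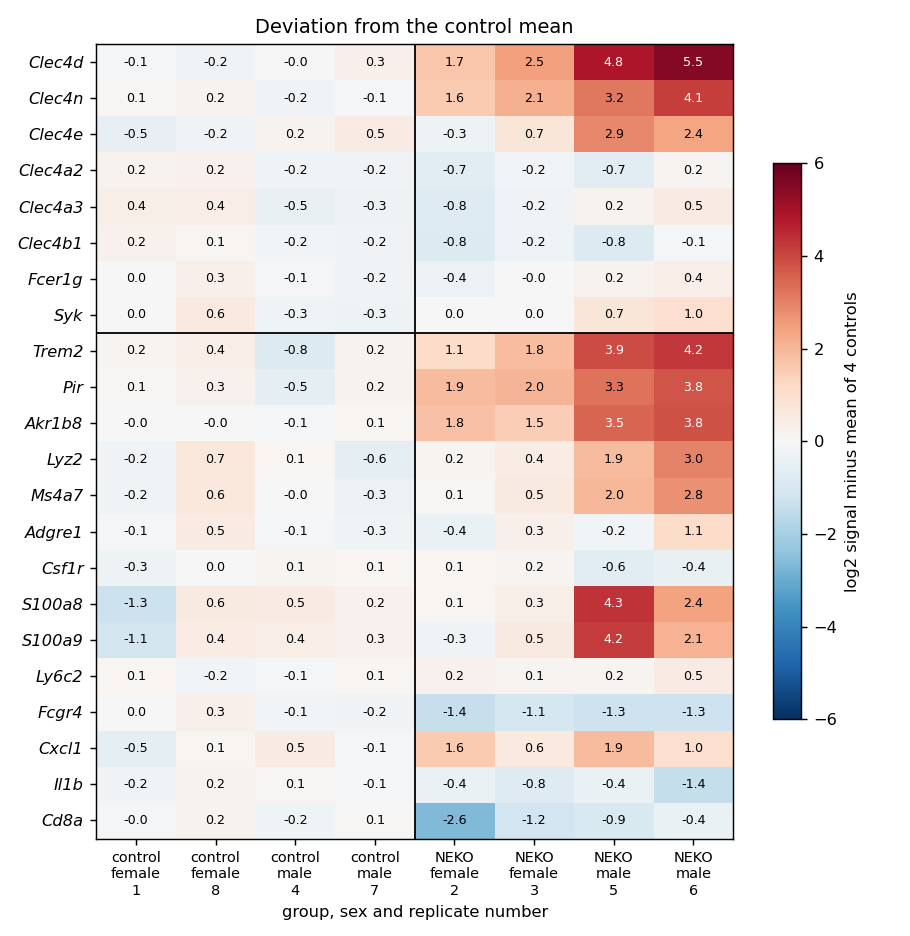
Log2 signal minus the mean of the 4 controls (colour and printed value) in each of the 8 kidneys, grouped by genotype and sex with the replicate number, for 8 genes of the lectin cluster and its signalling above the line and 14 other genes below it, shown because they are named in the text. Clec4d and Clec4n are positive in all 4 NEKO kidneys, while S100a8 and S100a9 are above 2 in the male NEKO kidneys only and Fcgr4 is at least 1 below the control mean in all 4.

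As a check of the labels and the tissue, Keap1 read 1.77 to 1.92 in controls and 0.06 to 0.45 in NEKO mice (-1.63, SE 0.10, limma adjusted p = 0.0046), and all 12 kidney tubule markers were detected, with 0 called and summed levels of 621 to 719 in controls and 576 to 669 in NEKO mice. Separated among them were Atp6v1g3, of the intercalated-cell proton pump (-0.90), and Slc5a2, the proximal tubule glucose carrier (-0.43). Of 12 tested Nrf2 targets, 2 were called higher, Gpx2 (5.40, SE 0.46, limma adjusted p = 0.0106) and Txnrd1 (1.30, SE 0.17, limma adjusted p = 0.0486), which encode antioxidant enzymes. The Txnrd1 call was lost in 13 of 20 alternatives, 7 of them fits without 1 mouse, and that of Gpx2 without control 7 and in the methods' comparison with adjustment. Of the 12, 8 were separated upward, the largest being the carbonyl reductase gene Cbr3 (5.83, limma adjusted p = 0.054), Gpx2 and the quinone reductase gene Nqo1 (2.62, limma adjusted p = 0.065). Their median was 0.71 in females and 1.64 in males.

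The genes most like each lectin were found by the root mean square difference of their deviations from the control mean over the 8 arrays, among 13519 named genes. Nearest to Clec4n were Pir, a nuclear iron-binding protein gene (0.232 log2 units apart), Akr1b8, an aldo-keto reductase gene (0.309), Kif1a, a kinesin gene (0.359), Cntnap2 (0.392) and Trem2 (0.408). Pir lay between -3.24 and -2.42 in controls and between -0.82 and 1.08 in NEKO mice (limma adjusted p = 0.0577, not passing). Nearest to Clec4d were Ptchd1 (0.492), Map7d2 (0.539), Tmem74 (0.729), Trem2 (0.734) and Adh7, a retinol-oxidising alcohol dehydrogenase gene (0.752). Of these, Tmem74 (3.36, SE 0.26, limma adjusted p = 0.0075) and Adh7 (3.31, SE 0.24, limma adjusted p = 0.0073) passed the test, but like Clec4d neither was well above background in any control, so both were tested only through their NEKO arrays. Under normexp they differed by 0.92 (limma adjusted p = 0.0599, the call lost) and 1.36 (limma adjusted p = 0.0267). Clec4d and Clec4n were 0.807 apart, the 7th place from Clec4d and the 29th from Clec4n. This likeness is a description over 8 arrays that share groups and sexes.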

How the data were processed

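Kidney RNA of 8 mice was measured on 8 Agilent 1-colour arrays. The authors deposited Feature Extraction 10.7.3.1 output with spot intensity, in which the processed signal is background-subtracted and detrended, and a matrix of log2 values, 100% of which lay within 0.01 of log2 processed signal less the 75th percentile and centred per probe. The methods do not name the normalization. Outlier spots (73 to 172 of 43379 per array) were left out and spots of a probe averaged. Probes were kept if well above background on at least 4 arrays, with values on at least 6, the brightest such probe standing for its gene. The share of probes well above background ran from 61.8% to 65.7%, and the number of arrays limits precision. RefSeq names matched 26690 of 41174 probes. The model used limma 3.58.1 in R 4.3.3 (lmFit, eBayes, sex and genotype), with Benjamini-Hochberg adjustment, calls at 0.05 and the procedure tested on simulated data. Sex is also the slide. P-values measure the spread between these samples. Single values were compared by two-sided exact permutation.

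Members and lists were chosen with earlier results of these data known. Named genes are the members, called or separated list genes (up to 3 per list), the 5 most alike, flanking genes and Keap1. Bcl10, Malt1, Fcgr1, Fcgr3, Tyrobp, Ccl4, Nlrp3, Mpo, Ltf, Lyz2, Ms4a7, Adgre1, Csf1r, S100a8 and S100a9 were named after their values were seen. Alternatives were normexp (offset 50), quantile and median scaling, the deposited matrix, dim-probe filters, probe averaging, no sex term, trend and robust settings, array weights, the unpaired comparison with unequal variances named in the methods, and leaving out each mouse. Array annotation is on mm9, so only RefSeq promoters carry coordinates.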

Additional observations from a re-analysis of the deposited data

Results flagged for a closer look

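Clec4a3 and Fcer1g moved in opposite directions in the sexes in every mouse: NEKO females lay below both female controls and NEKO males above both male controls. The excess in males was 1.59 log2 units for Clec4a3 (SE 0.29, limma adjusted p = 0.132) and 0.79 for Fcer1g (SE 0.23, limma adjusted p = 0.289), so neither passed the test of the difference. Each slide held 1 sex, so slide and sex cannot be told apart. In 16 groups of 4 values of the members, no value stood apart by Dixon's criterion, which chance meets in about 1 in 20 groups.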

How the results depend on the processing

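Clec4d (3.62) and Clec4n (2.75) kept their direction under every alternative run, from 1.44 (normexp) to 5.03 (within males) and from 1.71 (within females) to 3.80 (within males). Both, Clec4d tested only through its NEKO arrays, passed 0.05 averaged over the sexes (adjusted p = 0.0036 and 0.0064 in limma) and in the methods' comparison without adjustment. With adjustment that comparison gave 0.403 and 0.370. Leaving out 1 mouse gave 3.20 to 4.07 and 2.35 to 3.07. No paired analysis was possible because the replicate numbers run over both groups and none is shared.

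Values within females and males were -0.88 and 0.71 for Clec4a3, -0.35 and 0.44 for Fcer1g, and -0.26 and 1.16 for Syk, with no member passing the adjusted test of the sex difference. Leaving out 1 mouse gave -0.30 to 0.19 for Clec4a3, turning the sign without control 1 (0.06), control 8 (0.08) or NEKO 2 (0.19), and -0.06 to 0.20 for Fcer1g, turning it without control 4 (-0.00417), control 7 (-0.0554) or NEKO 6 (-0.0628). C1ra turned to -0.0104 under normexp, -0.0897 without control 4 and -0.13 without NEKO 6 (range -0.13 to 0.15), and C1rl to 0.0897 without NEKO 5 (range -0.17 to 0.0897). The cause was not tested.

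Members called higher numbered 0, and 2 both averaged over the sexes and in the methods' comparison without adjustment. Those 2 were Clec4d and Clec4n, picked on these arrays, so nothing is read from the count. Clec4d was also tested only through its NEKO arrays. Of the 19593 features tested, 247 averaged over the sexes and 943 without adjustment were called higher. The methods' comparison without adjustment called 4 pathway genes higher and 4 lower. With adjustment it called 0 pathway genes lower, and leaving out 1 mouse gave 0 to 1. Marker genes are counted here together with the kidney tubule genes and the Nrf2 targets. Those called higher numbered 2, both of them Nrf2 targets (Gpx2 and Txnrd1). The number was 5 under normexp, 4 with trend and robust settings, 4 with array weights and 9 averaged over the sexes. It was 1 each under quantile scaling, median scaling, no filter and detection on all 8 arrays. The methods' comparison with and without adjustment gave 0 and 13, and leaving out 1 mouse gave 0 to 2. Those called lower numbered 0, then 1 under normexp, trend and robust, array weights and averaging over the sexes, and 2 in the methods' comparison without adjustment. Over everything tested, calls numbered 19 upward and 25 downward. Normexp gave 70 and 114, and the other settings gave 8 and 12 with detection on all 8 arrays, 40 and 53 with trend and robust settings, 48 and 98 with array weights, 247 and 268 averaged over the sexes, 0 and 1 and then 943 and 1269 in the methods' comparison with and without adjustment, and 9 to 24 and 8 to 25 leaving out 1 mouse. Without the sex term 16 were called lower. Low signal limits Clec4d, Clec4e and Clec4a1, whose controls were at background. Without control 7 Gpx2 had limma adjusted p = 0.055. Txnrd1 lost its call on leaving out control 1, 4, 7 or 8 or NEKO 3, 5 or 6.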
